A study of Mus musculus with 9 samples.

Results

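The pathway described here joins the cerebral cavernous malformation (CCM) complex to the MEF2 transcription factors, and 10 of its genes were followed. They are Krit1, Ccm2 and Pdcd10 of the CCM complex, its receptor Heg1, the kinase genes Map3k3, Map2k5 and Mapk7, and the transcription factor genes Mef2a, Mef2c and Mef2d. Every peak of open chromatin that the deposited annotation names for one of these genes was taken, which gave 248 of 253457 peaks in 9 libraries. Peaks of all libraries that shared at least 1 bp were merged, and the 248 peaks fell into 61 of 92495 regions. All 10 genes had at least 1 peak.

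Omni-ATAC-seq, in which the transposase Tn5 cuts and tags accessible DNA, was run on nuclei of brain endothelial cells (ECs) that had been purified from mice. The groups were young WT Cre (n = 2), young EC-K4KO (n = 3), old WT Cre (n = 2) and old EC-K4KO (n = 2). EC-K4KO mice carried floxed Klf4 together with a tamoxifen-inducible Cre under the promoter of Cdh5, the gene of VE-cadherin. WT Cre mice carried that Cre with intact Klf4, and the study states that its control and experimental mice were given tamoxifen alike and that males and females were used. The labels give the ages as young and old. Cdh5 is active in ECs of all organs, so the deletion was not limited to the brain, and the sorted cells can hold other vascular cells. Where a cell mixture is measured in bulk, a smaller share of a cell type and less open chromatin per cell cannot be told apart.

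ECs sense blood flow through this pathway. HEG1, a transmembrane protein at EC junctions, binds KRIT1, which forms a complex with CCM2 and PDCD10. CCM2 binds and restrains the kinase MEKK3 (Map3k3), which starts the cascade from MEK5 (Map2k5) to ERK5 (Mapk7). ERK5 activates MEF2 factors, which drive Klf2 and Klf4, a pair of genes that hold ECs in a quiescent state. Loss of a CCM gene from brain ECs releases MEKK3 and gives rise to leaky vascular lesions.

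The lists of peaks differed greatly in length, from 6157 and 9598 peaks in young WT Cre to between 32555 and 45026 in old libraries, with 23848 to 27992 in young EC-K4KO. The number of reads behind each list is unknown, and weak peaks enter only long lists. A promoter peak of Klf4 was present in all 9 libraries, ranked between 911 and 5797, but the labels do not say which part of the gene was deleted, so this peak is no check of the knockout. Promoter peaks were found for 6 to 9 of 10 EC marker genes in each library and for 0 of 6 microglial markers in any. Mural markers reached 3 of 6 and astrocyte markers 2 of 6 in old EC-K4KO, against 0 of 6 of either in both young groups, and neuron and oligodendrocyte markers never exceeded 1 of 6. The part of these cells in the results was not tested. Library names carry 1 prefix for young and another for old libraries, so prefix and age cannot be told apart.

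Windows of DNA sequence are shown for the 6 regions on which the results below turn, namely 3 promoters whose place in the lists separated groups and the 3 distal regions that were open in all 9 libraries. Promoter windows are the 250 bp before the RefSeq start site on GRCm38, on the strand of the gene, and distal windows are 200 bp at the centre of the stretch shared by the peaks, on the plus strand. Capitals mark matches on either strand to a KLF pattern (CCNCNCCC) or a MEF2 pattern (TANNNNTAG), where N is any base and overlapping matches run together.
Mef2a promoter, chr7:67372859-67373108, minus strand: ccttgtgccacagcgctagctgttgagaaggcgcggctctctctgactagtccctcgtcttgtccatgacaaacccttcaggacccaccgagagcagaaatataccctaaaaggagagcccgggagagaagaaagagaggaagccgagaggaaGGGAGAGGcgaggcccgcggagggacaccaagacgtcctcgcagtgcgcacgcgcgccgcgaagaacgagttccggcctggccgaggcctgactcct
Mef2d promoter, chr3:88142122-88142371, plus strand: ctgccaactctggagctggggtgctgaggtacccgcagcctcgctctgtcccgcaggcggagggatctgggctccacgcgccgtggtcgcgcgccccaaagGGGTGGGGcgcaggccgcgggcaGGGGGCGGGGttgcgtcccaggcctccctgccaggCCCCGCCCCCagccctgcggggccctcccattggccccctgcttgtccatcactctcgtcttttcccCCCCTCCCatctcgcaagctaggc
Pdcd10 promoter, chr3:75556853-75557102, minus strand: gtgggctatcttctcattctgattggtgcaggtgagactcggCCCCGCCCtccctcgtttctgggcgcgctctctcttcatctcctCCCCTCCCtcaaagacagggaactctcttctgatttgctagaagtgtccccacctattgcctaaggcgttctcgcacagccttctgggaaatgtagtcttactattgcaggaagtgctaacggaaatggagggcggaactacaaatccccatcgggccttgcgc
Mef2c intron, chr13:83572184-83572383: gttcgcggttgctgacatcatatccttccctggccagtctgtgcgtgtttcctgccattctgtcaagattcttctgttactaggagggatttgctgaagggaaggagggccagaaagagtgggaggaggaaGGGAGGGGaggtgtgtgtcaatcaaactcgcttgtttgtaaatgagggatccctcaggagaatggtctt
Heg1 upstream, chr16:33676421-33676620: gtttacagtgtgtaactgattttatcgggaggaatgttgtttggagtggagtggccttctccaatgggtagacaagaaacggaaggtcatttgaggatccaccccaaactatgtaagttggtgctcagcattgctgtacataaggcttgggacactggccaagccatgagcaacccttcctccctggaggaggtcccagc
Heg1 intron, chr16:33714379-33714578: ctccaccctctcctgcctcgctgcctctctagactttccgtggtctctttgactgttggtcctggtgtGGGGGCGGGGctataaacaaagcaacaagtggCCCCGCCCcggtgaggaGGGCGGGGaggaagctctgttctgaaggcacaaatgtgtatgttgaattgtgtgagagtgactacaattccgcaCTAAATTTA

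The windows differed in their KLF pattern matches. The Mef2d promoter held 6, the Heg1 intron window 4, the Pdcd10 promoter 2, the Mef2a promoter and the Mef2c intron 1 each, and the window upstream of Heg1 held 0. The MEF2 pattern was matched only at the end of the Heg1 intron window. The strongest peak of the region covered this whole window in 6 libraries, and each of the other windows in all 9. An ETS pattern (CCGGAAG) and an AP-1 pattern (TGANTCA) had 0 matches in the 6 windows. The KLF pattern is common, with a match in 45.9% of 32851 RefSeq promoter windows of this length and in 43.9% of 1449 windows at distal regions open in all libraries. The MEF2 pattern was held by 19.0% and 10.7% of these windows, the ETS pattern by 6.91% and 5.66%, and the AP-1 pattern by 6.75% and 13.3%. A match is a description of the letters and not a binding site.

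Distal peaks made up most of the difference in peak number between groups. Young WT Cre libraries held 9 and 12 peaks of the 10 genes, young EC-K4KO libraries 24, 27 and 30, old WT Cre libraries 40 and 31, and old EC-K4KO libraries 40 and 35. Promoter peaks numbered 5 and 8 in young WT Cre and 8 to 10 in the other libraries. Distal peaks numbered 4 in each young WT Cre library, 16, 18 and 21 in young EC-K4KO, and 22 to 31 in old libraries. On average the genes had 3.38 times as many peaks in old as in young WT Cre and 2.57 times as many in young EC-K4KO as in young WT Cre, while whole lists were 4.85 and 3.26 times as long. In old mice the EC-K4KO to WT Cre ratio was 1.06 for these genes and 1.10 for whole lists. Among the 6157 strongest peaks of each library, the genes held 8 to 10 peaks in every library, and the first 2 of these ratios became 0.95 and 0.98. These counts are descriptions with no test.

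**Figure D1:**
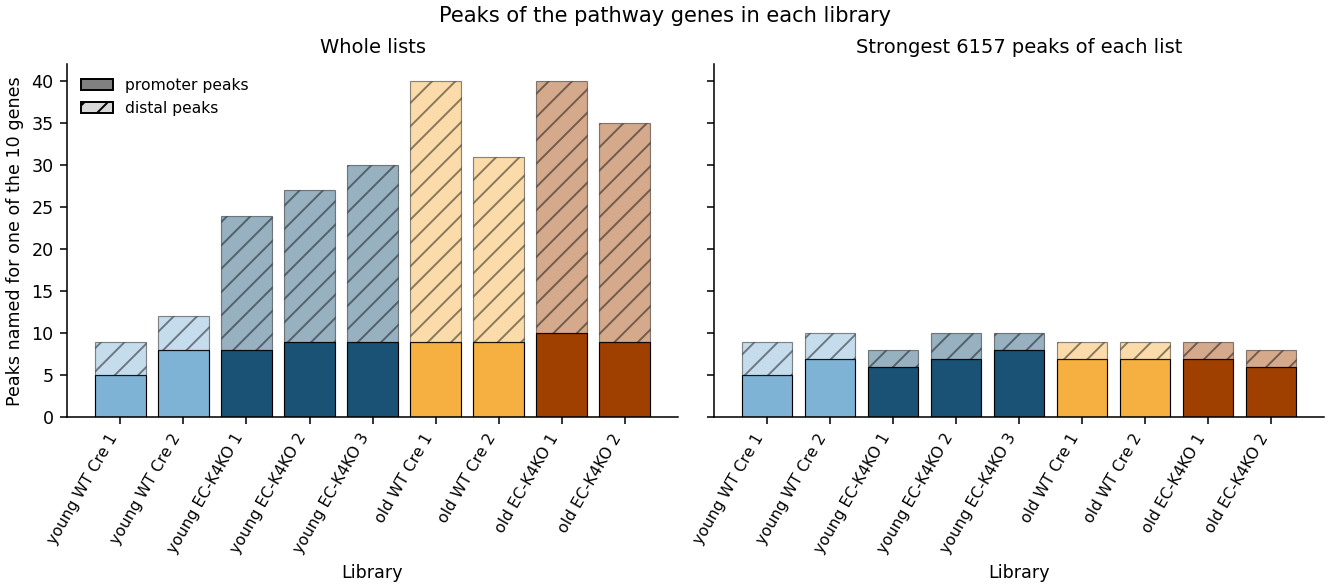
Number of peaks named for the 10 genes (vertical axis) in each library, in the whole lists (left) and in the 6157 strongest peaks of each list (right). Solid bars are promoter peaks and hatched bars distal peaks. The whole lists hold 9 to 40 such peaks, and the shortened lists 8 to 10.

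By class, 92 of the 248 peaks were intronic (37.1%, against 33.2% of all peaks), 76 were promoter peaks (30.6% against 24.5%), 70 were intergenic (28.2% against 34.1%) and 10 were exonic (4.03% against 6.87%). The promoter peaks lay high in the lists. Their median rank, where 1 is the peak with the largest -log10 p of its library, was within the top 3.42% to 11.2% of the list, while the median of all promoter peaks was at 15.4% to 37.7%. Distal peaks of the genes had medians between 39.9% and 79.7% of the list, and all distal peaks between 57.5% and 66.8%. Of the 61 regions, 9 held a peak in all 9 libraries (14.8%, against 5.27% of all regions) and 24 in a single library (39.3% against 57.3%). The 9 shared regions were the promoters of Ccm2, Pdcd10, Map3k3, Mapk7, Mef2a and Mef2d and 3 distal regions, of which 2 belong to Heg1 and 1 to Mef2c.

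The next question was whether the place of these regions in the lists, or their width, differed by genotype or by age. The rank on a log2 scale and the covered width on a log2 scale were compared in the 4872 regions shared by all libraries, by exact permutation (two-sided) of genotype within age or of age within genotype, with Benjamini-Hochberg adjustment over all regions. The 60 arrangements of the labels allow no p below 0.0167. With that limit a region can pass 0.05 after adjustment only where a large share of all regions also have small p. However large its own difference, it cannot pass by itself, so a count of 0 does not show that the groups were alike. The labels number the replicates without naming separate animals, while the paper calls them biological replicates. Each p is the share of label arrangements of these libraries that gave a difference at least as large. With adjustment, 0% of the 4872 regions (0 regions) passed 0.05 for rank or for width, by genotype or by age, and none of the shared regions of the 10 genes did. Without adjustment, 594 regions (12.2%) had an exact p under 0.05 for rank by genotype and 1467 (30.1%) for rank by age. Of the 9 shared regions of these genes, 2 and 3 did. The corresponding numbers for width were 1926 (39.5%) and 2112 (43.3%), with 1 and 4 of the 9 regions of these genes. Below, regions at the smallest p are described beside the share of all regions at that p in the same direction. The median difference over all regions was 0.07 (log2 rank) by genotype and 0.17 by age, and over the 9 regions of the genes -0.11 and 0.31.

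**Figure D2:**
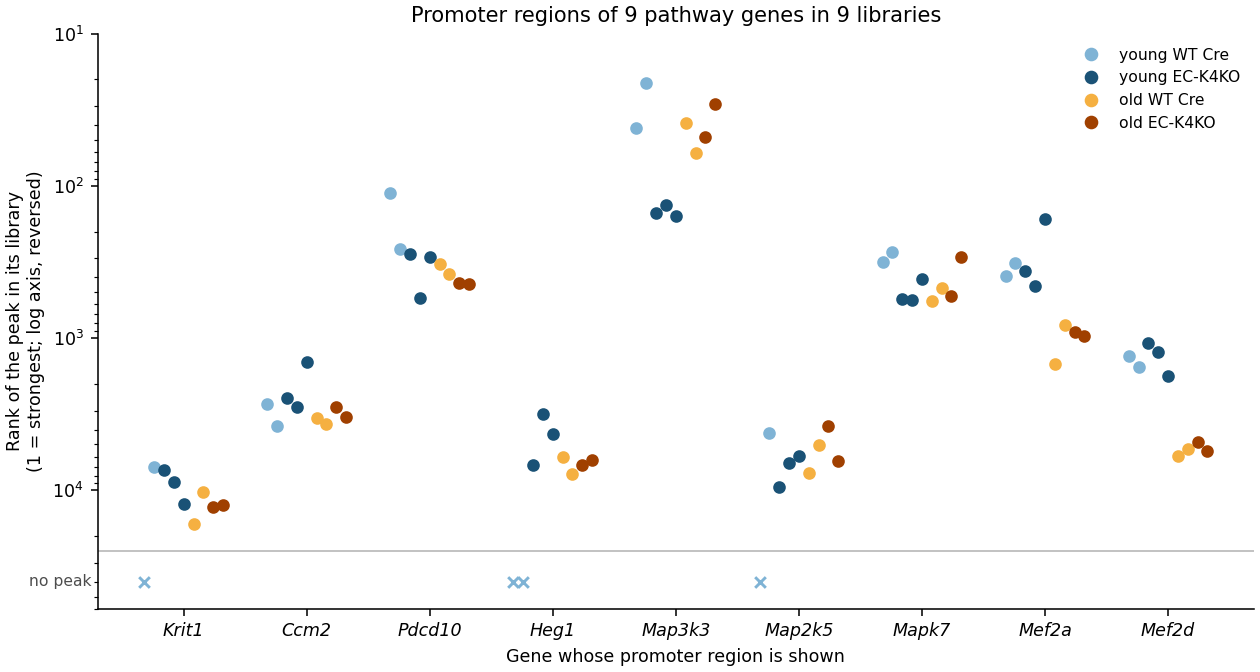
Rank of the promoter region of 9 genes in each library on a reversed log axis, with the strongest peaks at the top. Each point is a library coloured by group, and a cross marks a library with no peak. Map3k3 ranks between 21 and 158 and Krit1 between 7071 and 16754, and the 4 crosses all belong to young WT Cre.

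Among the CCM genes, Pdcd10, which codes for a scaffold protein of the complex, had the strongest promoter region. Its ranks were 112 and 259 in young WT Cre, 280, 543 and 294 in young EC-K4KO, 328 and 381 in old WT Cre, and 436 and 440 in old EC-K4KO. All EC-K4KO libraries ranked this region lower than the WT Cre libraries of their age. The genotype difference was 0.68 (log2 rank, a ratio of 1.61, exact p = 0.0167, adjusted p = 0.221), and 5.64% of all regions reached this p in that direction. Without young WT Cre replicate 1 the difference was 0.38, and as a percent of list length, which scales long lists down, it was -0.26 (exact p = 0.433). On the percent scale the median of all regions was -0.88. The region spans 1158 bp (chr3:75556449-75557606) over the start sites of Pdcd10 and its divergent neighbour Serpini1, which lie 691 bp apart, and in young WT Cre replicate 1 the annotation names the peak for Serpini1.

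The promoter region of Ccm2, the adaptor that binds MEKK3, ranked 2703 and 3796 in young WT Cre, 2477, 2859 and 1437 in young EC-K4KO, 3347 and 3655 in old WT Cre, and 2837 and 3307 in old EC-K4KO. The groups overlapped, with a genotype difference of -0.38 (exact p = 0.133) and an age difference of 0.31 (exact p = 0.283). Old EC-K4KO replicate 1 had another peak of 217 bp that the annotation calls a Ccm2 promoter, 12.8 kb into the gene and at rank 42108. Krit1, which links the complex to HEG1, had a promoter region low in the lists and no other peak. It had no peak in young WT Cre replicate 1 and ranked 7071 in replicate 2, 7333, 8806 and 12311 in young EC-K4KO, 16754 and 10333 in old WT Cre, and 12917 and 12576 in old EC-K4KO. This region also covers the start of Ankib1, whose nearest start site is 259 bp away, so the signal belongs to both promoters.

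Heg1 had 14 regions and 50 peaks, and those 24 to 48 kb upstream lie in introns of the neighbouring gene Slc12a8. The Heg1 promoter region (chr16:33684164-33684799) had no peak in either young WT Cre library. It ranked 6800, 3176 and 4237 in young EC-K4KO, 6071 and 7840 in old WT Cre, and 6782 and 6292 in old EC-K4KO. A region in the first intron, 13 kb past the start, showed the same presence, with ranks from 12193 to 17575 in the 7 libraries. The promoter ranks of 3176, 4237 and 6071 lie within the length of both young WT Cre lists, and 6292, 6782, 6800 and 7840 within that of the longer only. All the intronic ranks lie beyond the end of both. Lists were called separately, so a rank in one does not carry over to another, and the cause of the missing peaks was not tested. The same presence pattern was shared by 10.5% of 34636 regions.

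The intergenic region 8 kb upstream of Heg1, whose sequence is given above, was open in all libraries, and its rank ranged from 2501 to 7847, both in young WT Cre. Its covered width was 354 and 587 bp in young WT Cre, 630, 756 and 844 bp in young EC-K4KO, 907 and 808 bp in old WT Cre, and 1009 and 1000 bp in old EC-K4KO. EC-K4KO libraries were wider than WT Cre libraries of the same age in every case. The genotype difference was 0.46 (log2 width, a ratio of 1.38, exact p = 0.0167, adjusted p = 0.0665). This p was reached by 25.1% of all regions in the direction of greater width in EC-K4KO, and the median of all regions was 0.35. Without young WT Cre replicate 1 the width difference was 0.28.

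The intronic region 30 kb into Heg1 was wider in old libraries. It covered 240 and 273 bp in young WT Cre, 246, 378 and 431 bp in young EC-K4KO, 608 and 574 bp in old WT Cre, and 637 and 555 bp in old EC-K4KO, with no overlap between young and old libraries. The age difference was 1.002 (log2 width, a ratio of 2.00, exact p = 0.0333, adjusted p = 0.0769) against a median of 0.47 over all regions. Its place in the list was further down in EC-K4KO (0.63, exact p = 0.0333, adjusted p = 0.273), with values from 3473 to 5246 in young WT Cre and from 5280 to 10958 in young EC-K4KO. As a percent of list length the rank difference was -0.31 (exact p = 0.467), on a scale on which the median of all regions was -0.88. Ranked only among the regions shared by all libraries, the difference was 0.18 (exact p = 0.15, adjusted p = 0.516).

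Of the kinase genes, Map3k3 had the strongest region of all 10 genes. Its promoter region (chr11:106083895-106084797) ranked 42 and 21 in young WT Cre, 150, 133 and 158 in young EC-K4KO, 39 and 61 in old WT Cre, and 48 and 29 in old EC-K4KO. The 3 young EC-K4KO libraries lay below each of the other 6. The genotype difference was 2.304 (log2 rank) in young and -0.39 in old mice, and the difference between these was -2.69 (two-sided exact permutation p = 0.0333, adjusted p = 0.491). Of all regions, 6.79% had an exact p under 0.05 in this test of interaction, and 1 of the 9 regions of the genes did. As a percent of list length the interaction was -1.10 (exact p = 0.267), and the young groups overlapped, at 0.682% and 0.219% in WT Cre against 0.629%, 0.526% and 0.564% in EC-K4KO. The median interaction of all regions was -0.11 in log2 rank. Since dividing by list length shifts all regions of a library alike, the distance of Map3k3 from the median of all regions is the same on both scales. The interaction test was added after the data had been seen. It permuted genotype within age, so its p refers to no genotype difference at either age and not to equal differences at both. Width at this region was 456 and 458 bp in young WT Cre and 682 to 858 bp in all other libraries.

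The promoter region of Mapk7, the gene of ERK5, ranked 315 and 274 in young WT Cre, 553, 563 and 412 in young EC-K4KO, 568 and 466 in old WT Cre, and 526 and 294 in old EC-K4KO. In rank, young EC-K4KO lay further down than young WT Cre without overlap, and the old groups overlapped. As a percent of list length the order of the young groups turned, with 5.12% and 2.85% in young WT Cre and 2.32%, 2.22% and 1.47% in young EC-K4KO. The genotype difference was 0.20 in log2 rank and -0.75 on the percent scale (exact p = 0.0167, adjusted p = 0.0804). The median of all regions on the percent scale was -0.88, so the Mapk7 shift was smaller than that of a typical region. The interaction was -1.17 (exact p = 0.05, adjusted p = 0.551). Map2k5, the kinase gene between them, had no peak in its promoter region in young WT Cre replicate 1. In young EC-K4KO replicate 1 the annotation calls the peak of this region exonic, so it was counted among the distal peaks. The promoter region of Map2k5 ranked 4234 in young WT Cre replicate 2, 9511, 6600 and 5986 in young EC-K4KO, 7706 and 5005 in old WT Cre, and 3804 and 6374 in old EC-K4KO. The gene had 4 further regions, all intronic, and each was found only in young EC-K4KO replicate 1. Map3k3 had 2 further intronic regions, in 1 and 2 libraries, and Mapk7 had none.

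**Figure D3:**
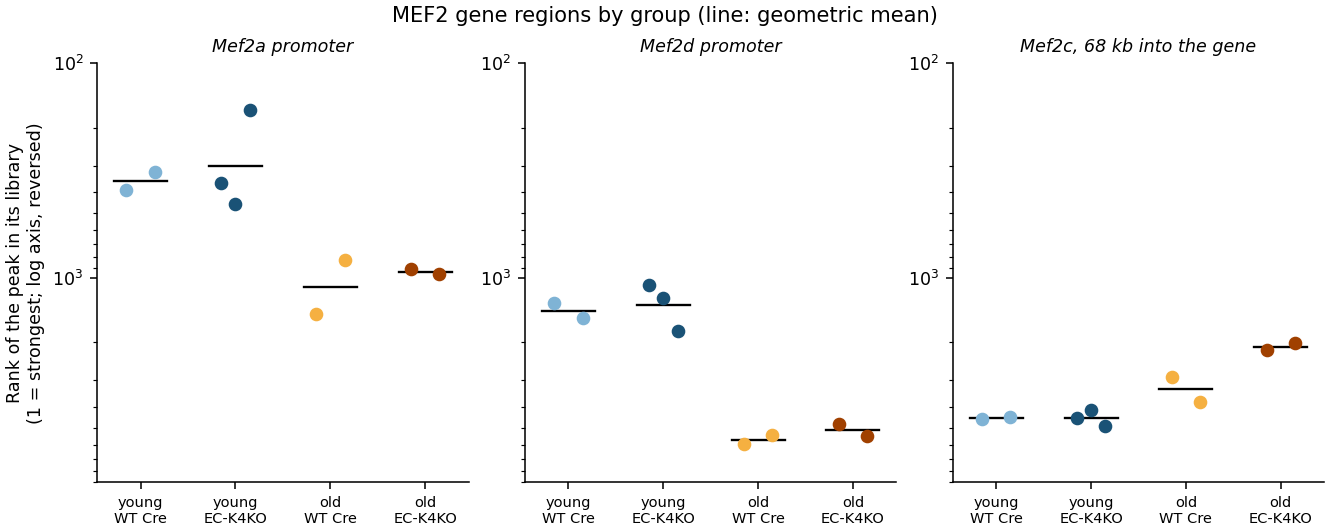
Rank in the library on a reversed log axis for the promoter regions of Mef2a and Mef2d and the intronic region of Mef2c, by group. Points are libraries and lines are geometric means. The old libraries lie below the young ones in the Mef2a and Mef2d panels and above them in the Mef2c panel.

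Ranks at the 3 MEF2 genes separated young from old libraries, though not in the same direction. The Mef2a promoter region (chr7:67372740-67373614) ranked 391 and 323 in young WT Cre and 363, 452 and 166 in young EC-K4KO. It ranked 1481 and 824 in old WT Cre and 916 and 965 in old EC-K4KO. All old libraries were further down the list than all young ones. The age difference was 1.64 (log2 rank, a ratio of 3.12, exact p = 0.0167, adjusted p = 0.0885), and the genotype difference was -0.24 (exact p = 0.5). The geometric mean rank was 355 in young WT Cre and 301 in young EC-K4KO, against 1105 and 940.2 in the old groups.

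The Mef2d promoter region (chr3:88140235-88142740) ranked 1316 and 1539 in young WT Cre, 1079, 1241 and 1778 in young EC-K4KO, 5988 and 5396 in old WT Cre, and 4797 and 5490 in old EC-K4KO. Young and old libraries were again apart, with an age difference of 1.97 (log2 rank, a ratio of 3.92, exact p = 0.0167, adjusted p = 0.0885) and a genotype difference of -0.12 (exact p = 0.45). Of all regions, 13.0% reached the smallest p for a place further down in old libraries, and Mef2a and Mef2d were the 2 of 9 regions of these genes that did. As a percent of list length the differences were 0.14 for Mef2a (exact p = 0.767) and 0.47 for Mef2d (exact p = 0.233), on a scale on which the median of all regions was -1.33. The distance from the median is the same on these 2 scales, 1.47 for Mef2a and 1.80 for Mef2d, since dividing by list length shifts all regions of a library alike. Other effects of list length on rank are not removed by it. Ranked only among the regions shared by all libraries, the differences were 1.61 for Mef2a and 1.48 for Mef2d, with a median of 0.018 over all regions (exact p = 0.0167, adjusted p = 0.111 for both).

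The Mef2d promoter, further down in old libraries, covered more bases there. It covered 754 and 789 bp in young WT Cre, 1075, 1393 and 1535 bp in young EC-K4KO, 1672 and 2055 bp in old WT Cre, and 1769 and 1761 bp in old EC-K4KO. It was wider in all old libraries (0.84 on the log2 scale, exact p = 0.0333, adjusted p = 0.0769), by 0.56 when only the strongest peak was measured and by 0.33 without old WT Cre replicate 2. The Mef2a region covered 680 to 863 bp in all libraries, with an age difference of 0.14 (exact p = 0.05). Over all regions the median age difference in width was 0.47.

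Mef2c, a MEF2 gene of the vascular and neural lineages, had no peak over its annotated main start sites at chr13:83504034-83504240 in any library, and no peak named as its promoter. Its strongest region lay in intron 2 of 10, 68 kb past the start (chr13:83571926-83572665). It ranked 4565 and 4464 in young WT Cre, 4514, 4154 and 4934 in young EC-K4KO, 2902 and 3801 in old WT Cre, and 2174 and 2021 in old EC-K4KO. All old libraries placed it further up than all young ones, opposite to the promoters of Mef2a and Mef2d. The age difference was -0.78 (log2 rank, a ratio of 0.584, exact p = 0.0167, adjusted p = 0.0885), a result reached by 5.85% of all regions in that direction. As a percent of list length it was -2.28 and passed the threshold (exact p = 0.0167, adjusted p = 0.0450). On that scale the promoters of Map3k3 (-2.13) and Mapk7 (-1.28) passed as well, and so did 37.0% of all regions (1804 of 4872). The median of all regions was -1.33 there, because dividing by the longer old lists moves every region further up in them. Passing on this scale is therefore partly built in, and the Mapk7 difference was smaller than that of a typical region. The Mapk7 difference had been 0.22 in log2 rank (exact p = 0.45), so its direction turned with the scale. Ranked by fold enrichment in place of -log10 p, the age difference of the Mef2c region was -0.03 (exact p = 0.867), while the median of all regions was 0.74 on that measure.

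The region covered 233 and 307 bp in young WT Cre, 410, 448 and 476 bp in young EC-K4KO, 663 and 469 bp in old WT Cre, and 632 and 621 bp in old EC-K4KO. Within each genotype the old libraries were wider, and across genotypes old WT Cre replicate 2 lay below young EC-K4KO replicate 3. The age difference was 0.78 (log2 width, a ratio of 1.72, exact p = 0.0167, adjusted p = 0.0769), and 21.2% of all regions reached this p in that direction.

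**Figure D4:**
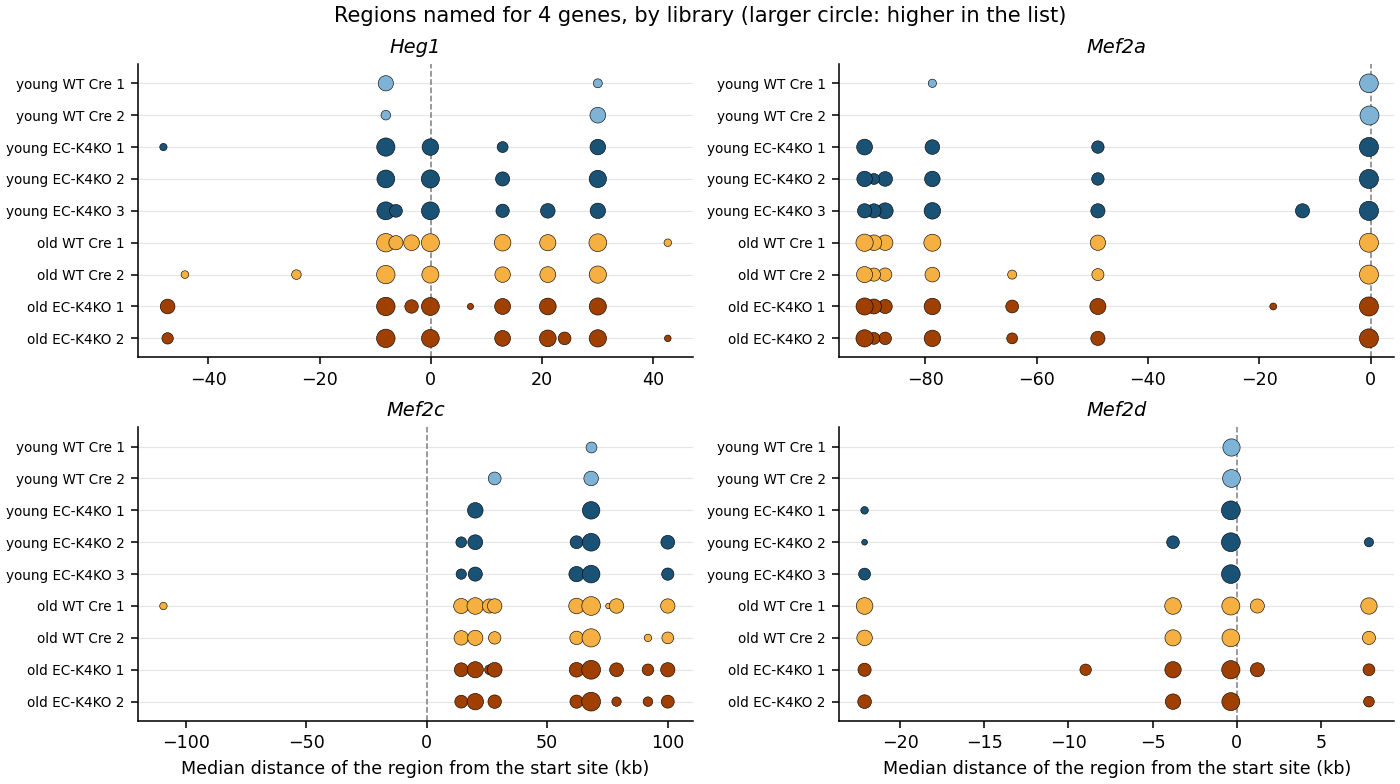
Regions named for Heg1, Mef2a, Mef2c and Mef2d in each library, placed by distance from the start site in kb (dashed line). Regions of Mef2c farther upstream are left out. A circle is a region with a peak, coloured by group, and larger circles lie higher in the list. Young WT Cre rows hold few circles beside the promoters of Mef2a and Mef2d and the distal regions of Heg1 and Mef2c.

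Presence of a peak was compared in regions that not all libraries shared. Of the 61 regions, 28 held a peak in 2 to 8 libraries, and 6 of these had a peak in all 7 libraries of the other groups and in neither young WT Cre library. They were the Heg1 promoter, the Heg1 region at 13 kb, the Mef2c region at 20 kb, the Mef2d region 22 kb upstream, and the Mef2a regions 49 and 91 kb upstream. This pattern was shared by 10.5% of the 34636 regions of that kind. For presence, under the same limit on p, 0% of these 34636 regions passed 0.05 after adjustment by genotype or by age (0 regions). The smallest p, in the direction of more libraries, was reached by 0.0520% of regions in EC-K4KO and by 10.2% in old libraries, and by 0 of the 28 regions of these genes either way. Mean presence differed by 0.26 between genotypes and by 0.54 between ages over the 28 regions, against 0.26 and 0.57 over all.

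Mef2a had a set of 6 intergenic regions between 49 and 91 kb upstream of its start, 5 of which were found in at least 6 libraries. The region 79 kb upstream was found in 8 libraries, ranked 5475 in young WT Cre replicate 1, 8012 to 10937 in young EC-K4KO, and 10361 to 14676 in old libraries. The region 91 kb upstream was found in 7 libraries at ranks from 8376 to 13805. Mef2c had 16 regions, 10 of them in introns and 6 far upstream. The region at 20 kb, which lies over internal start sites of the gene, ranked 8983, 11113 and 14074 in young EC-K4KO, 12337 and 13307 in old WT Cre, and 14385 and 11550 in old EC-K4KO. The 6 upstream regions, from 109 to 393 kb away, were each found in 1 library.

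The Mef2c region at 28 kb, in contrast, had a peak in young WT Cre replicate 2 at rank 5793, in no young EC-K4KO library, and in all 4 old libraries at ranks from 20239 to 21784. The Mef2d region 22 kb upstream lies in an exon of the neighbouring gene Iqgap3, and ranked 21944, 25057 and 18757 in young EC-K4KO, 12183 and 12465 in old WT Cre, and 26080 and 21040 in old EC-K4KO. Regions of Mef2d 4 kb upstream and 8 kb downstream of the start were each found in young EC-K4KO replicate 2 and in all 4 old libraries.

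**Figure D5:**
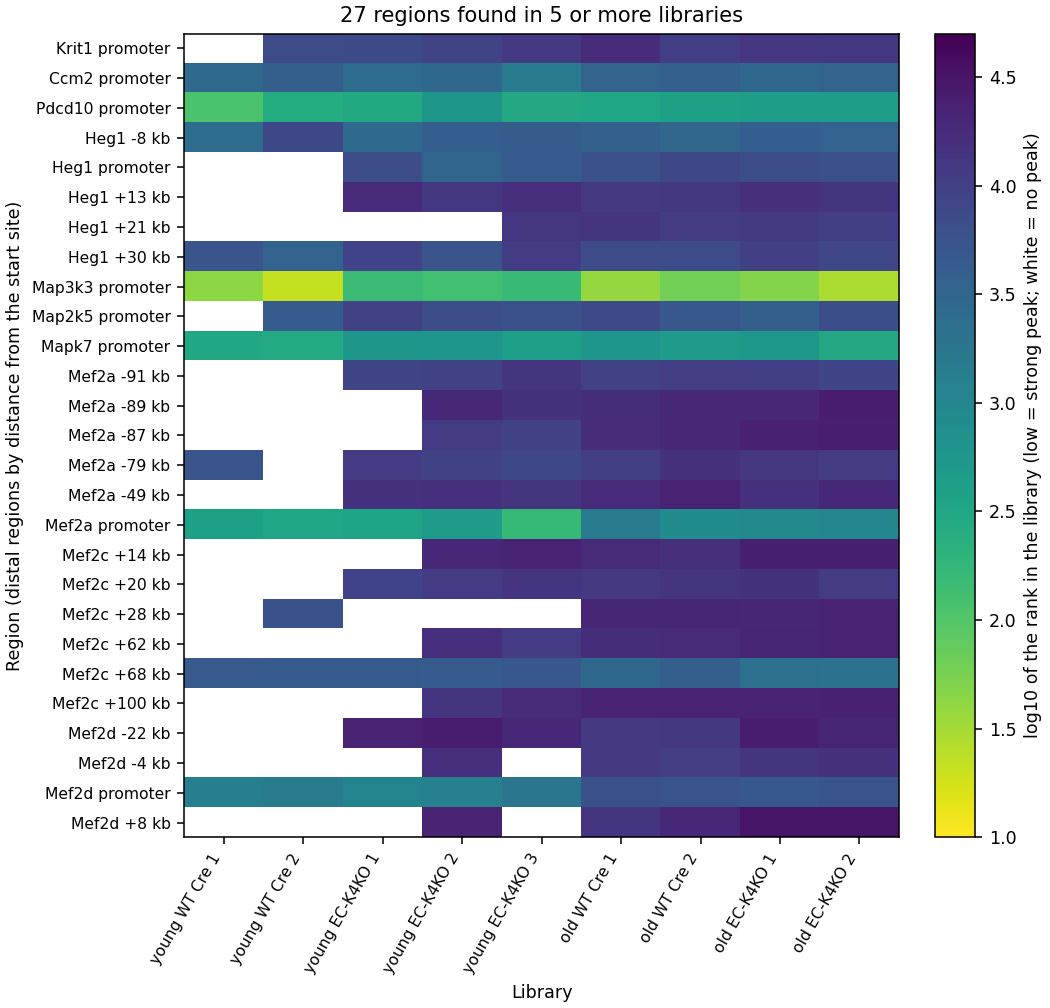
The 27 regions of the 10 genes found in 5 or more libraries (rows) by library (columns), coloured by log10 of the rank, with light colours for strong peaks and white for no peak. Distal rows are labelled by distance from the start site. White cells lie mostly in the young WT Cre columns, and the rows of Map3k3, Pdcd10, Mapk7 and Mef2a promoters are the lightest.

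Another 25 genes of the pathway were read in the same way. Promoter peaks were found for 19 of them, and 11 had a promoter region in all 9 libraries. By genotype 0 of these 11 reached the smallest p further down in EC-K4KO and 1 further up, where 1.89% of all regions did so and 0 of the 9 regions of the 10 genes. This was Klf4 itself, which ranked 3588 and 2467 in young WT Cre, 911, 1155 and 1414 in young EC-K4KO, 5797 and 4166 in old WT Cre, and 3387 and 3502 in old EC-K4KO (difference -0.95, exact p = 0.0167, adjusted p = 0.221). By age 2 of 11 were further down in old libraries and 0 further up, where 13.0% and 5.85% of all regions were. They were Klf4 (1.16, exact p = 0.0167, adjusted p = 0.0885) and Stk24, a kinase gene whose product binds PDCD10 (1.29, exact p = 0.0167, adjusted p = 0.0885). Klf2, the other KLF target of the pathway, ranked between 61 and 137 in all libraries, with a genotype difference of -0.23 (exact p = 0.383).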

How the data were processed

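Omni-ATAC-seq peak lists of 9 libraries were read. According to the methods of the study and the submitters' processing notes, adapters were trimmed (TrimGalore), reads were aligned to mm10 (GRCm38) with Bowtie2 and filtered with Picard and SAMtools, and the authors called broad peaks per library with MACS2. The file headers show that peaks were annotated with HOMER. Each deposited list holds a score (10 times the -log10 q), a fold enrichment (a ratio to local background), a -log10 p and a -log10 q, averaged over the peak by the authors' caller, and ends at a q near 0.1. The annotation deposited by the authors gives other values per peak, namely a distance to the start site in bp and a class. No read counts were used, which leaves library depth unknown, and counting errors are therefore not given.

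Peaks were ranked within a list by -log10 p, merged into regions at 1 bp of overlap, and matched to start sites of GENCODE M21. A region is called a promoter where the annotation gives promoter-TSS for any of its peaks, and otherwise distal. Regions in all libraries were tested for rank and width, and regions in 2 to 8 libraries for presence, with stratified two-sided exact permutation tests adjusted by the Benjamini-Hochberg method over all regions. Tests were checked on simulated data. Sequences came from the RefSeq promoter table and genome (GRCm38.p6), where all 3 promoters shown were matched by symbol.

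Computation used Python 3.11.15, numpy 2.4.6, pandas 2.3.3 and matplotlib 3.10.9. The 10 genes, the 25 other pathway genes, the markers and the patterns were chosen with earlier results of these data known. The rule for named items took all 10 genes, their promoter regions and up to 2 distal regions per gene found in most libraries, and the further distal regions named were chosen after their values were seen. Alternatives were another ranking measure, rank as a percent of the list or among shared regions, regions in at least 5 libraries, the width of the strongest peak, lists of 6157 peaks, limits on q of 0.05 and 0.01, 100 bp of overlap, a replicate block, promoters within 3000 bp, and leaving out each library.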

Additional observations from a re-analysis of the deposited data

Results flagged for a closer look

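The rank of the Map3k3 promoter region differed between genotypes by 2.304 (log2 rank) at young age and by -0.39 at old age. The difference between these, -2.69, had a two-sided exact permutation p of 0.0333 over 60 arrangements of genotype within age. Its adjusted p was 0.491, so it did not pass the threshold after adjustment over 4872 regions. In young mice all 3 EC-K4KO libraries (ranks 133 to 158) lay further down than both WT Cre libraries (21 and 42). As a percent of list length they overlapped (0.526% to 0.629% against 0.219% and 0.682%), a scale that shifts all regions of a library alike. In old mice the genotypes overlapped in rank (29 and 48 against 39 and 61). Leaving out each library in turn gave interactions from -3.19 to -2.19, and adjusted p over all alternatives ranged from 0.359 to 0.970.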

How the results depend on the processing

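Depth is unknown, each group has 2 or 3 libraries, and a rank depends on all other peaks of its list. Leaving out a library leaves fewer arrangements of the labels. Over the 9 shared regions of the genes, the median genotype difference in log2 rank (-0.11) became 0.52 when ranked by fold enrichment, -1.05 as a percent of the list and 0.59 over 27 regions with a peak in at least 5 libraries, and the median age difference (0.31) became 1.11, -1.19 and 0.47. In the setting of at least 5 libraries, a library with no peak in a region was given the rank just past the end of its list. The sign of both medians therefore depends on how rank is scaled. The medians of all 4872 shared regions, 0.07 by genotype and 0.17 by age, moved as well. They were 0.36 and 0.74 by fold enrichment, and -0.88 and -1.33 as a percent of the list. On the percent scale 1804 regions passed for age, where 0 passed in every other setting run. Single regions turned direction there too, by genotype those of Mapk7 (-0.75), Pdcd10 (-0.26) and Heg1 at 30 kb (-0.31), and by age those of Ccm2 (-1.19), Mapk7 (-1.28), Pdcd10 (-0.82) and Heg1 at 30 kb (-1.04). Ranked by fold enrichment, those of Ccm2 (0.17), Mef2d (0.71) and Heg1 at -8 kb (0.28) turned by genotype, and those of Map3k3 (2.81) and Heg1 at -8 kb (1.05) by age. List length enters the percent scale by construction, and sets the rank given to missing peaks in the setting of at least 5 libraries. For the other settings the cause was not tested. In lists of 6157 peaks the mean differences in presence (0.26 by genotype and 0.54 by age) were -0.021 and -0.10 over 4 regions, the peak number ratios were 0.95 (old over young WT Cre) and 0.98 (young EC-K4KO over young WT Cre), and the promoter share (35.7%) was 73.2%. It was 42.5% with q under 0.01, where 7 regions of the genes were shared by all libraries.

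Leaving out each library gave ranges of -0.16 to 0.22 for the genotype difference in rank, 0.40 to 0.67 for the age difference in width (0.46), 2.95 to 3.94 for the old to young WT Cre ratio (3.38) and 2.25 to 3.00 for the young EC-K4KO ratio (2.57). The highest value of each came without young WT Cre replicate 2, and the genotype difference in rank was also above 0 (0.17) without young WT Cre replicate 1. Ranges that crossed 0 for a single region were -0.023 to 0.69 for the Ccm2 width by genotype (lowest without young WT Cre replicate 1), -0.52 to 0.30 by genotype and -0.58 to 0.24 by age for the rank of Heg1 at -8 kb (highest without young WT Cre replicate 2), and -0.014 to 0.41 for the Mapk7 rank by genotype (lowest without old EC-K4KO replicate 1). Deviations of same-numbered libraries correlated by 0.0423 to 0.0915, so the numbers were not taken to pair the libraries. With the replicate block, which allows no p below 0.125, the median differences in rank were -0.02 by genotype and 0.16 by age, and 0 regions passed for rank, width or presence. Of 229 recomputed group values 18 moved by more than the spread between replicates. Of 566 recomputed values of single regions 16 turned direction, 16 others moved without turning and 3 passed the threshold, 1 of which had also turned (Mapk7 by age). By the rule used, a value at the smallest p in the main test could not be counted as moved. The count of moved values therefore leaves out changes by age in rank at Mef2a (1.64 to 0.14 as a percent of the list), Mef2d (1.97 to 0.47 on that scale) and Mef2c (-0.78 to -0.03 by fold enrichment).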
